A study of Mus musculus with 4 samples.

Results

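The genes examined here are 9 genes through which cells receive interferons, namely the cytokine gene Ifng, the receptor genes Ifngr1, Ifngr2, Ifnar1 and Ifnar2, the kinase genes Jak2 and Tyk2, the transcription factor gene Stat2 and the inhibitor gene Socs1. They were taken by symbol from the 54532 genes of the count table, and all 9 reached the minimum of 10 counts in 1 or more libraries that 16367 genes, called the genes tested below, did. Each gene was read in CD11b+Ly6g+ cells sorted from mouse lung, which the study calls MDSCs (myeloid-derived suppressor cells), in 4 RNA-seq libraries. Male C57BL/6 mice aged 6 to 8 weeks carried a pre-metastatic niche (PMN) model, in which every group, the control included, received B16F10 melanoma-conditioned medium (MCM, 300 μl per mouse, intraperitoneally, for 10 days) and, on day 7, 100000 B16F10 cells by tail vein. The control group (Ctrl) had no peptide, and the other groups had TP5, sFD17 or FR17 under the skin from day 3 at 40 μM/kg a day until the lungs were taken on day 10. TP5 is thymopentin, an immunomodulatory pentapeptide. FR17 carries TP5 on a backbone that assembles in the lung after cleavage by MMP2, and sFD17 assembles likewise but carries a scrambled TP5 sequence.

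The cells of 10 to 12 mice were pooled into the 1 library of each group, so no difference below has a replicate check and no p-value is given. A difference of at least 2-fold is used as a size threshold. The 95% intervals are exact Poisson intervals for a level and exact binomial intervals for a ratio, and they cover counting error only. The libraries held from 15543071 to 19638228 counts, and 3 counts, the limit that a count of 0 allows, corresponded to 0.131 to 0.227 CPM (counts normalised to a common library total). Levels are CPM scaled by the TMM (trimmed mean of M-values) method, and log2 fold changes are differences of log2 CPM with a prior count of 2. The interval beside a log2 fold change is that of the ratio without the prior count. Both sort markers were present in every library, with Itgam (CD11b) at 302 to 433 CPM and Ly6g at 73.1 to 111 CPM. The 18 neutrophil markers summed to 3.57% to 4.04% of all counts, and none of 13 marker lists of lung and blood cell types had a gene at 0 in any library.

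Type I interferons, such as interferon beta, bind the receptor made of IFNAR1 and IFNAR2, to which the kinases TYK2 and JAK1 are attached, and activate STAT proteins. Among these STAT2 joins IRF9 in the complex ISGF3, which binds the interferon-stimulated response element (ISRE) in target promoters. Interferon gamma, the product mainly of NK cells and T cells, binds the receptor made of IFNGR1 and IFNGR2, signals through JAK1 and JAK2, and acts on the gamma-activated site (GAS). SOCS1 is induced by both pathways and inhibits JAK kinases. Neutrophils and other myeloid cells carry both receptors.

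Of the 9 genes, 3 had a highest library at least 2-fold above the lowest. Stat2 was 4.08 times as high in sFD17 as in control. Socs1 was also highest in sFD17, at 1.80 times control. Ifng was highest in FR17, at 2.75 times control on low counts. The 4 receptor genes and both kinase genes stayed under a 2-fold difference in all 6 pairs of libraries.

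**Figure D1:**
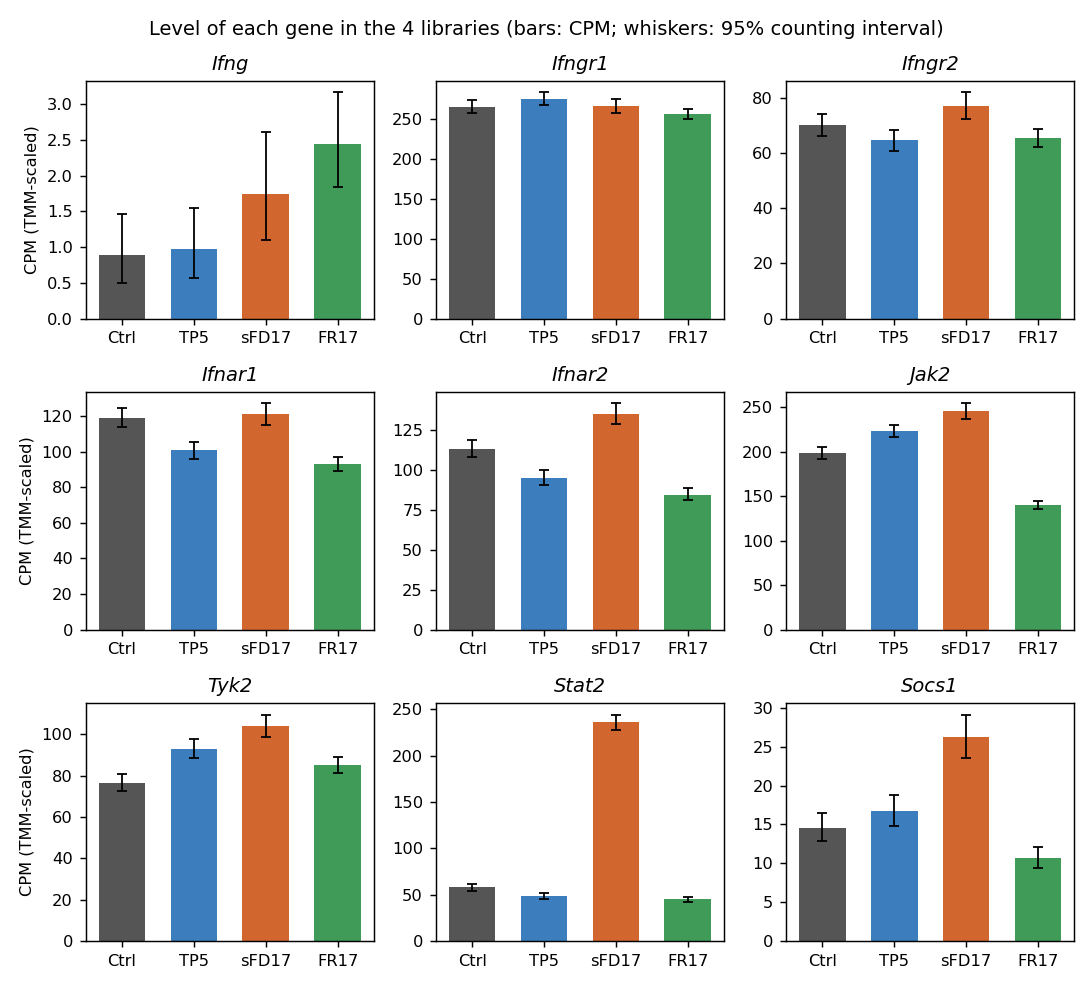
Level of the 9 genes in the 4 libraries, in TMM-scaled CPM on axes that start at 0, with 1 panel per gene; bars are single libraries and whiskers the exact 95% Poisson interval of the counts. Stat2 stands at 236 CPM in sFD17 and at 44.9 to 57.8 CPM in the others, while Ifngr1 lies between 256 and 275 CPM throughout.

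Against control, 0 of the 9 genes were at least 2-fold higher and 0 at least 2-fold lower in TP5, where 3.19% and 4.99% of the genes tested were. In sFD17, 1 gene, Stat2, was at least 2-fold higher and 0 were lower, against 5.32% and 6.47% of the genes tested. In FR17, 1 gene, Ifng, was at least 2-fold higher and 0 were lower, against 3.91% and 3.57%. A share of 1 in 9 rests on a single gene, so these counts say little of the 9 as a group. The median log2 fold change of the 9 against control was 0.05 with TP5, 0.31 with sFD17 and −0.36 with FR17, beside 0.00, −0.03 and 0.02 for all genes tested. With library size it was 0.11 with TP5, 0.09 with sFD17 and −0.11 with FR17. Neutrophil scaling, which sets the median change of neutrophil markers to 0, gave −0.05, −0.14 and −0.25, so the signs with TP5 and sFD17 turned. These comparisons share the control library. By counting error alone, the interval of the ratio to control excluded 1 for 5 of the 9 genes with TP5, 6 with sFD17 and 7 with FR17. At this depth a ratio as near 1 as the 1.10 of Ifngr2 in sFD17 was enough for that.

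Between the peptides, FR17 and sFD17 differed most with TMM, by the 2-fold counts and medians below. By counting error alone, the interval of the ratio excluded 1 for 7 of the 9 genes in each pair of peptides. In FR17 against sFD17, 2 of the 9 genes, Stat2 and Socs1, were at least 2-fold lower and 0 were higher, against 10.8% lower and 11.3% higher of the genes tested. Ifng was the 1 gene at least 2-fold higher in FR17 than in TP5, and 0 were lower, against 7.04% and 2.88%. Stat2 was the 1 gene at least 2-fold higher in sFD17 than in TP5, and 0 were lower, against 6.74% and 5.64%. The median log2 difference of the 9 genes was −0.38 for FR17 against sFD17, −0.12 for FR17 against TP5 and 0.26 for sFD17 against TP5, beside 0.07, −0.02 and −0.04 for all genes tested. All 3 signs turned with neutrophil scaling, to 0.17, 0.09 and −0.08, and with library size, to 0.08, 0.07 and −0.0037. All 3 peptides were given at the same dose on the same days.

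The scaling of the libraries bears on every small difference. The TMM factor was 0.849 for sFD17 and 1.17 for FR17, against 0.986 for control and 1.02 for TP5. Scaled by library size alone, the median log2 fold change of all genes tested was −0.23 in sFD17 and 0.26 in FR17. Scaled so that the neutrophil markers did not change in the median, it was −0.46 in sFD17 and 0.12 in FR17. Of the 2-fold differences between sFD17 and control, 45.1% were higher in sFD17 with TMM, 27.4% with library size and 13.7% with neutrophil scaling. For FR17 it was 52.2%, 77.5% and 64.2%, and for FR17 against sFD17 51.1%, 84.3% and 87.9%, in the same order. It was 71.0%, 83.6% and 84.1% for FR17 against TP5 and 54.4%, 30.1% and 24.1% for sFD17 against TP5. Signs of sFD17 or FR17 against control that turn between these scalings are named with each gene. For FR17 against sFD17, the log2 differences of Ifngr1 (−0.06), Ifngr2 (−0.24), Ifnar1 (−0.38) and Tyk2 (−0.29) turned to 0.40, 0.22, 0.08 and 0.17 with library size.

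Ifng, the interferon gamma gene (ENSMUSG00000055170, chromosome 10 from 118441046 to 118445892, plus strand, GRCm38.p6), was the lowest of the 9 per length of transcript, at 0.686 to 1.88 CPM per kilobase. It had 15 counts in control, 17 with TP5, 23 with sFD17 and 56 with FR17, or 0.888, 0.969, 1.74 and 2.44 CPM. FR17 was highest and control lowest, and neighbours in this order did not differ beyond counting error. FR17 exceeded control by 1.35 on the log2 scale (0.62 to 2.39) and TP5 by 1.24 (0.53 to 2.21), while its ratio to sFD17 was 1.40 (0.85 to 2.38). At these counts the prior count makes the log2 values smaller, and the ratio of FR17 to control without it was 2.75. The log2 difference of FR17 from control was 1.34 to 1.58 over the alternatives tried. Of its 1295 exon bases, 336 also belong to Gm49751 on the same strand, which had 0, 2, 2 and 9 counts in control, TP5, sFD17 and FR17.

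Markers of NK and T cells moved with Ifng in FR17. The 12 NK cell markers summed to 47.4 CPM in control, 41.0 with TP5, 43.7 with sFD17 and 137 with FR17. All 12 were above control in FR17, 11 of them at least 2-fold, among them Prf1 (62 counts in control and 352 in FR17), which encodes perforin, and Ncr1 (25 and 106), an NK cell receptor gene. The 12 T cell markers summed to 67.9 CPM in control, 59.6 with TP5, 47.7 with sFD17 and 121 with FR17, where all 12 were above control and 3 at least 2-fold. Per 100 counts of the NK markers, Ifng had 1.87 counts in control (1.04 to 3.11), 2.36 with TP5 (1.37 to 3.81), 3.99 with sFD17 (2.51 to 6.04) and 1.78 with FR17 (1.34 to 2.32). On this scale FR17 stood beside control and sFD17 was highest. Per 100 counts of the T cell markers, Ifng had 1.31 in control, 1.63 with TP5, 3.65 with sFD17 and 2.02 with FR17. Other cell types moved in FR17 too. The 9 eosinophil, basophil and mast cell markers summed to 1.97 times control, with all 9 above control and 5 at least 2-fold, and the 8 type 2 innate lymphoid cell markers to 1.42 times, with 7 of the 7 tested above control and 3 at least 2-fold. The part of these cell types in the Ifng difference was not tested, and in sorted bulk cells fewer cells of a type and less RNA per cell cannot be told apart.

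**Figure D2:**
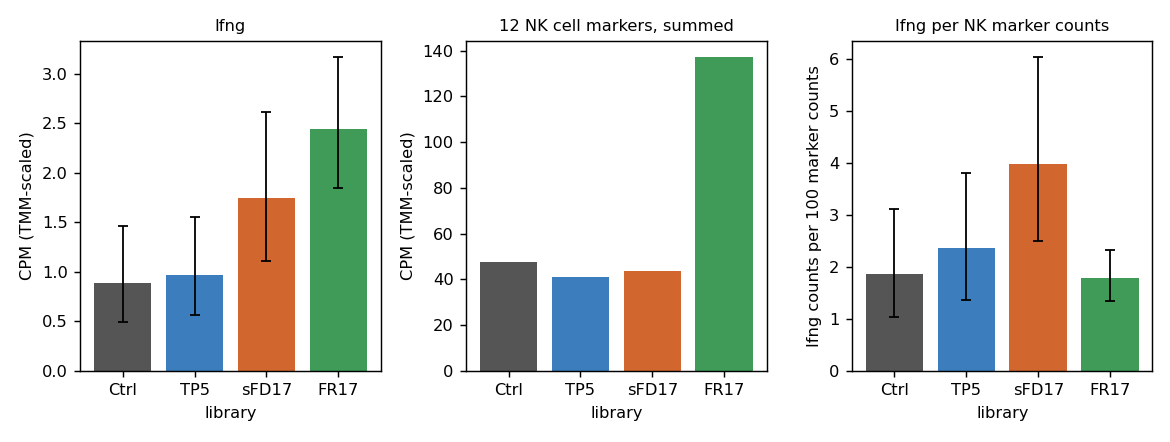
Ifng in TMM-scaled CPM (left), the summed CPM of 12 NK cell markers (middle) and Ifng counts per 100 NK marker counts (right) in the 4 libraries; whiskers are exact 95% counting intervals. Ifng and the NK marker sum are both highest in FR17, and their ratio in FR17, 1.78, is close to the 1.87 of control.

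By a fixed measure of likeness, the root mean square difference in log2 CPM over the 4 libraries after centring each gene, the patterns closest to Ifng among 9426 genes with a mean of at least 100 counts were those of Pcdh1 (0.18), Gzmb (0.18) and Cyp4b1 (0.21). Gzmb, which encodes granzyme B and is 1 of the 12 NK markers, had 111 counts in control, 122 with TP5, 119 with sFD17 and 321 with FR17. Pcdh1 encodes a protocadherin and Cyp4b1 a cytochrome P450 enzyme. With 4 points, many genes can come close to any pattern.

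Other interferon ligands were scarce. Of the 21 genes listed as other interferons with the interferon lambda receptor, 3 passed the minimum of 10 counts, and against control 0 of them were at least 2-fold higher in any peptide library, 1 was lower in TP5 and 0 were lower in sFD17 or FR17. Of the genes tested, 3.19% were higher and 4.99% lower in TP5, 5.32% and 6.47% in sFD17, and 3.91% and 3.57% in FR17. Ifnb1, the interferon beta gene, had 47 counts in control, 18 with TP5, 19 with sFD17 and 76 with FR17. It was thus lower in TP5 and sFD17 than in control, by a log2 fold change of −1.35 (−2.31 to −0.63) and −0.90 (−1.80 to −0.15), and the sFD17 value passed 2-fold with library size (−1.10) and neutrophil scaling (−1.32). All listed interferon alpha genes were at 0 in every library, apart from Ifna5 with 1 count in FR17. Ifnlr1, the ligand-binding chain of the interferon lambda receptor, had 300, 298, 417 and 302 counts in control, TP5, sFD17 and FR17. Il10rb, its partner chain, had 1769, 1626, 1763 and 1811 counts. Neither differed 2-fold from control.

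Ifngr1, the ligand-binding chain of the interferon gamma receptor (ENSMUSG00000020009, chromosome 10 from 19591949 to 19610229, plus strand), was the most abundant of the 9 per length, at 89.8 to 96.6 CPM per kilobase. It had 265 CPM in control, 275 with TP5, 266 with sFD17 and 256 with FR17. The highest library was 1.08 times the lowest, a narrower range than in 98.1% of the 6289 genes with at least 200 counts in every library. Of its 6 ratios between libraries, only FR17 to TP5 excluded 1, at 0.929 (0.894 to 0.965), and this log2 difference of −0.11 turned to 0.09 with library size and 0.10 with neutrophil scaling. This evenness depends on the TMM scaling, since the log2 fold change in sFD17, 0.00, became −0.21 with library size and −0.44 with neutrophil scaling, and that in FR17, −0.05, became 0.19 with library size.

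Ifngr2, the signalling chain of the same receptor (ENSMUSG00000022965, chromosome 16 from 91547072 to 91565623, plus strand), had 70.2 CPM in control, 64.6 with TP5, 77.1 with sFD17 and 65.4 with FR17. It was highest in sFD17, at 1.10 times control (1.01 to 1.20), and the log2 difference of 0.14 turned to −0.08 with library size and −0.31 with neutrophil scaling. In FR17 its log2 fold change of −0.10 turned to 0.14 with library size. Control, FR17 and TP5 were neighbours that did not differ beyond counting error. A ratio within a library does not depend on the scaling. Per kilobase, Ifngr1 exceeded Ifngr2 by 5.00 times in control (4.69 to 5.33), 5.63 with TP5 (5.28 to 6.01), 4.56 with sFD17 (4.25 to 4.90) and 5.17 with FR17 (4.89 to 5.48). Transcripts of Ifngr1 thus exceeded those of Ifngr2 in every library, with TP5 and sFD17 at the ends of the range.

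Ifnar1, a chain of the type I receptor (ENSMUSG00000022967, chromosome 16 from 91485238 to 91507441, plus strand), had 119 CPM in control, 101 with TP5, 121 with sFD17 and 92.9 with FR17. Control and sFD17 did not differ beyond counting error, and FR17 was 22.0% below control, a ratio of 0.780 (0.734 to 0.830). Its log2 fold change in sFD17, 0.02, became −0.19 and −0.43 under library size and neutrophil scaling, while in FR17 it was negative under each scaling, from −0.36 to −0.11. Ifnar2, the high-affinity chain (ENSMUSG00000022971, chromosome 16 from 91372783 to 91405589, plus strand), had 114 CPM in control, 95.4 with TP5, 135 with sFD17 and 84.8 with FR17. These 4 levels all differed beyond counting error with TMM, in the order sFD17, control, TP5 and FR17, but the log2 difference of FR17 from TP5, −0.17, turned to 0.02 with library size and 0.04 with neutrophil scaling. The rise over control in sFD17, 1.19 times (1.12 to 1.27), turned to a log2 value of −0.19 with neutrophil scaling, and the FR17 value was −0.42 with TMM and −0.18 with library size. Gm21970 shares 315 of its exon bases on the same strand and had 0 counts in every library.

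Within each library Ifnar2 exceeded Ifnar1 per kilobase. The ratio was 1.70 in control (1.60 to 1.81), 1.69 with TP5 (1.58 to 1.81), 2.00 with sFD17 (1.87 to 2.14) and 1.63 with FR17 (1.53 to 1.73). The sFD17 library stood above the others here, and the interval in sFD17 did not overlap any other.

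**Figure D3:**
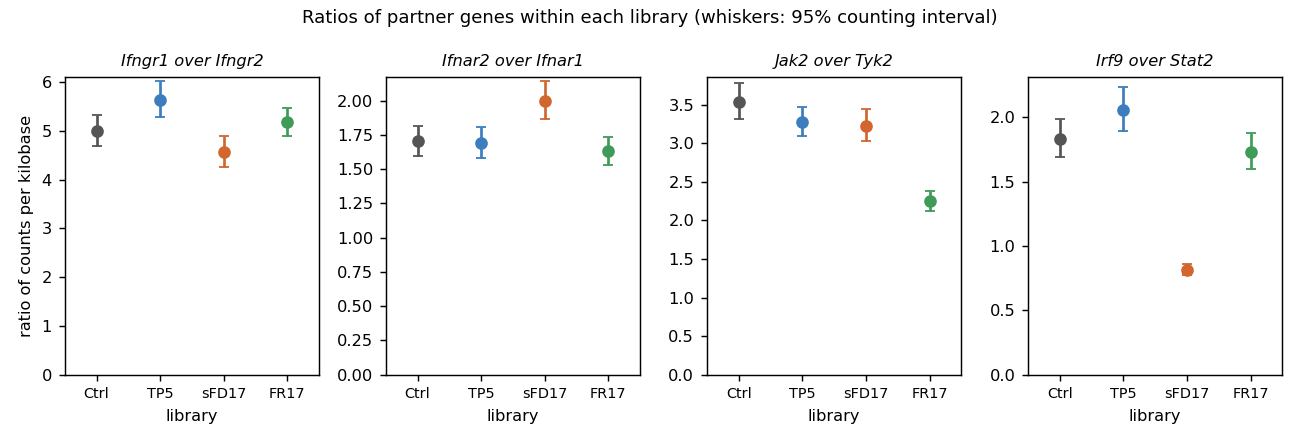
Ratio of counts per kilobase of exon between partner genes within each library, on axes that start at 0; points are single libraries and whiskers the exact 95% counting interval. The ratio of Jak2 to Tyk2 is lowest in FR17 (2.25) and that of Irf9 to Stat2 lowest in sFD17 (0.815), while the receptor ratios move less.

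Jak2, the kinase of the interferon gamma receptor and of many cytokine receptors (ENSMUSG00000024789, chromosome 19 from 29251828 to 29313080, plus strand), had 3350 counts in control, 3915 with TP5, 3240 with sFD17 and 3216 with FR17, or 198, 223, 245 and 140 CPM. FR17 was the low library. Its log2 difference was −0.50 (−0.57 to −0.43) from control, −0.81 (−0.88 to −0.74) from sFD17 and −0.67 (−0.74 to −0.60) from TP5. Among the 16367 genes tested, ordered from the largest rise to the largest fall, Jak2 in FR17 stood at rank 14025 against control. Its rank was 13978 against sFD17 and 15123 against TP5. Each of these FR17 differences kept its sign under every scaling, and the smallest value against control was −0.26, with library size. The rise over control in sFD17, 0.31, turned to −0.14 with neutrophil scaling. Per 100 counts of the neutrophil markers, Jak2 had 0.548 counts in control, 0.565 with TP5, 0.517 with sFD17 and 0.440 with FR17 (0.425 to 0.455), so FR17 was lowest on this scale too.

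Tyk2, the kinase held by IFNAR1 (ENSMUSG00000032175, chromosome 9 from 21104068 to 21131243, minus strand), had 76.5 CPM in control, 93.1 with TP5, 104 with sFD17 and 85.0 with FR17. With TMM all peptide libraries were above control, sFD17 most, with a log2 fold change of 0.44 (0.33 to 0.55) that fell to −0.01 with neutrophil scaling. The values were 0.28 in TP5 and 0.15 in FR17, and over the alternatives 0.18 to 0.33 and 0.14 to 0.40. The order depended on the scaling. The log2 difference of sFD17 from TP5 reached −0.19, and that of FR17 from sFD17 reached 0.26. A gene on the opposite strand, 1700084C06Rik, shares 554 of its 6865 exon bases and had 0 counts in every library. Per kilobase, Jak2 exceeded Tyk2 by 3.54 times in control (3.32 to 3.77), 3.27 with TP5 (3.09 to 3.47), 3.23 with sFD17 (3.03 to 3.44) and 2.25 with FR17 (2.13 to 2.38). The FR17 interval lay below the other 3, and this ratio needs no scaling. Jak1 over Tyk2 per kilobase was also lowest in FR17, at 4.09, beside 6.24 in control, 4.83 with TP5 and 5.57 with sFD17. The part of cell composition in these ratios was not tested.

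Stat2, the STAT that is particular to type I and lambda interferon signalling (ENSMUSG00000040033, chromosome 10 from 128270559 to 128292849, plus strand), had 976 counts in control, 856 with TP5, 3112 with sFD17 and 1031 with FR17, or 57.8, 48.8, 236 and 44.9 CPM. The sFD17 library was far above the rest, and TP5 and FR17 did not differ beyond counting error. Its log2 fold change in sFD17 against control was 2.03 (1.92 to 2.13), which placed it at rank 118 among the 16367 genes tested. Against sFD17, FR17 was lower by 81.0%, a log2 difference of −2.39 (−2.50 to −2.29), and against TP5, sFD17 was 4.83 times as high (4.48 to 5.22). The log2 fold change in sFD17 was 1.58 with neutrophil scaling and 2.07 with the size factors of DESeq2, the lowest and highest over the alternatives. In TP5 and FR17 Stat2 was slightly below control, at −0.24 (−0.38 to −0.11) and −0.36 (−0.49 to −0.24).

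Stat2 was set beside Irf9, which binds DNA with it in ISGF3. Irf9 had 1625 counts in control, 1602 with TP5, 2304 with sFD17 and 1624 with FR17. Its log2 fold change in sFD17 was 0.86 (0.77 to 0.95), under 2-fold. Per kilobase, Irf9 over Stat2 was 1.83 in control (1.69 to 1.99), 2.06 with TP5 (1.89 to 2.24), 0.815 with sFD17 (0.772 to 0.860) and 1.73 with FR17 (1.60 to 1.88). Stat2 transcripts thus outnumbered those of Irf9 per length in sFD17, and Irf9 led in the other 3 libraries.

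The promoter of Stat2 is shown because it holds an ISRE core and Stat2 was the member that differed most. These are the 250 bases upstream of the RefSeq start, chr10:128270248-128270497 on GRCm38.p6, plus strand, with the ISRE core in capitals. This start lies upstream of that in the count table.
Stat2: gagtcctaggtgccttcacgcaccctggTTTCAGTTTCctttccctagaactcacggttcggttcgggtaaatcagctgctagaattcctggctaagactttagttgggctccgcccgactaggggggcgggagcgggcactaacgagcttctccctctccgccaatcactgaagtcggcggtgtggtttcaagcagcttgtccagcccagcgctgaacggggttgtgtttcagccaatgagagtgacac

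Socs1, the other member with an ISRE core in this window, has the following 250 bases upstream of its RefSeq start, chr16:10785537-10785786 on GRCm38.p6, minus strand, with 2 overlapping cores in capitals.
Socs1: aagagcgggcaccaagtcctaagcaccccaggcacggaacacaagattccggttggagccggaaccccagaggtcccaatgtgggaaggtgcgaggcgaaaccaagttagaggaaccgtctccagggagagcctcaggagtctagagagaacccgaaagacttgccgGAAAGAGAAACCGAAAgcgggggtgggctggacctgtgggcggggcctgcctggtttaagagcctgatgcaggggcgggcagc

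The ISRE core was searched as GAAA, any 2 bases, and GAAA, on both strands, and the GAS core as TTCNNNGAA, which reads the same on both. The ISRE core lies in 2.98% of 32851 promoter windows of 250 bases and the GAS core in 7.02%, or in 3.46% and 8.13% of 27025 genes with a promoter. Of the 9 members, Stat2 holds 1 ISRE match, which begins 222 bases before the start, and Socs1 holds 2, at 83 and 77 bases. Ifnar2 and Ifng hold 1 GAS match each, at 214 and 249 bases, and no GAS match overlaps an ISRE match in the members. Of the genes listed as type I interferon targets, 8 of 18 with a promoter held the ISRE core, and of the interferon gamma targets 8 of 18, with the GAS core in 9 of 18. A match of letters is a description and no measurement of binding.

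Socs1 (ENSMUSG00000038037, chromosome 16 from 10782240 to 10785536, minus strand) had 246 counts in control, 293 with TP5, 346 with sFD17 and 245 with FR17, or 14.6, 16.7, 26.2 and 10.7 CPM. It was highest in sFD17 and lowest in FR17, and with TMM only control and TP5 did not differ beyond counting error. The log2 fold change in sFD17 against control was 0.84 (0.61 to 1.09), and in FR17 −0.44 (−0.71 to −0.19). Over the alternatives tried, the sFD17 value was 0.40 to 0.88 and the FR17 value −0.45 to −0.20. FR17 was 59.3% below sFD17, a log2 difference of −1.29 (−1.54 to −1.06), which passed 2-fold with TMM and did not with library size (−0.83) or neutrophil scaling (−0.74). Per kilobase Socs1 stood far below Socs3, the inhibitor of STAT3 signalling, and the ratio of Socs3 to Socs1 was 59.2 in control (52.1 to 67.4), 39.0 with TP5 (34.8 to 44.0), 39.5 with sFD17 (35.5 to 44.0) and 59.0 with FR17 (52.0 to 67.2). The ratio of Jak2 to Socs1, a kinase and its inhibitor, was 7.87 in control, 7.72 with TP5, 5.41 with sFD17 (4.84 to 6.07) and 7.59 with FR17.

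By the same measure of likeness, the patterns closest to Stat2 were those of Nlrc5 (0.10), the transactivator of MHC class I genes, Ifi204 (0.10), an interferon-inducible DNA sensor gene, and Il18bp (0.11), which encodes the decoy receptor of interleukin 18. Nlrc5 had 1017 counts in control, 861 with TP5, 3530 with sFD17 and 1229 with FR17, high in sFD17 as Stat2 was. Closest to Socs1 were Dock5 (0.02), a gene for an activator of Rac, Orai2 (0.02), a calcium channel subunit gene, and Polr2a (0.03), the largest subunit of RNA polymerase II. Dock5 had 2522, 3052, 3678 and 2545 counts in control, TP5, sFD17 and FR17. The other 6 members varied less than 2-fold and were not matched.

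**Figure D4:**
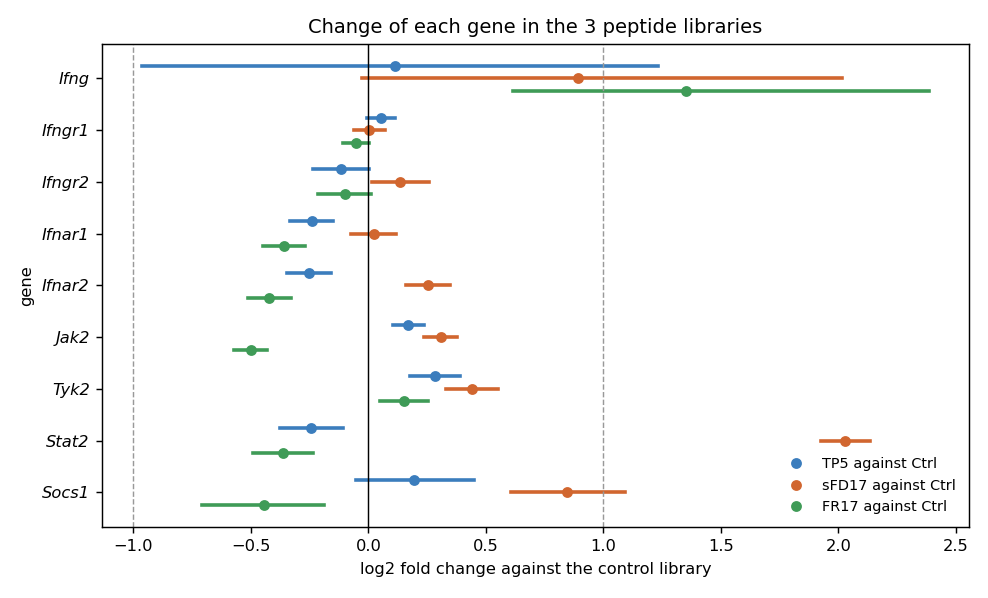
Log2 fold change of the 9 genes in the TP5, sFD17 and FR17 libraries against the control library; points are the values, lines the exact 95% counting interval, and dashed lines mark 2-fold. Stat2 in sFD17 (2.03) and Ifng in FR17 (1.35) lie past 2-fold, the latter with an interval from 0.62 to 2.39.

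Markers of other cells differed in sFD17 beside Stat2 and Socs1. The 14 macrophage markers summed to 6574 CPM in control, 5235 with TP5, 2374 with sFD17 and 8456 with FR17, and 8 of the 14 were at least 2-fold lower in sFD17. The 18 neutrophil markers were 1.31 times control in sFD17, with all 18 above control. Of the 6 platelet markers, 5 were above control in sFD17 while Pf4, at 1733 counts in control and 247 in sFD17, brought their sum to 0.298 times control. The 8 fibroblast markers summed to 0.468 times control, with 1 above control and 2, Dcn and the abundant Fn1 (17225 counts in control and 5014 in sFD17), at least 2-fold lower. Of the 9 lung epithelium markers, whose sum was 1.99 times control, 6 were above control, and most of that sum was Scgb1a1, with 9541 and 16131 counts. Per 100 counts of the neutrophil markers, Stat2 had 0.160 counts in control (0.150 to 0.170), 0.124 with TP5 (0.115 to 0.132), 0.496 with sFD17 (0.479 to 0.514) and 0.141 with FR17 (0.132 to 0.150). On this scale, too, sFD17 was the high library. The 9 eosinophil, basophil and mast cell markers summed to 1.62 times control in sFD17, with 6 above control and 4 at least 2-fold. The 8 monocyte markers summed to 1.25 times control, and most of that sum was Nr4a1, with 41686 counts in control and 45776 in sFD17. Of the 8, 4 were above control, and 3 of those were at least 2-fold higher (Ly6c2, Ms4a4c and Treml4). F13a1 was at least 2-fold lower (−1.91). The part of cell composition in the Stat2 and Socs1 values was not tested.

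The rest of the pathway was read from lists of other genes. The 8 other genes of the kinase and STAT list (Jak1, Jak3, Stat3, Stat4, Stat5a, Stat5b, Stat6 and Irf9) included 0 past 2-fold in any peptide library against control, where 3.19% to 6.47% of the genes tested were in each direction, so that a count of 0 of 8 says little of the list. All 8 lay above control in sFD17 with TMM, with a median log2 fold change of 0.51. That median was 0.30 with library size and 0.07 with neutrophil scaling, where 5 of the 8 lay above control. In FR17 7 of the 8 lay below control with TMM. The median of the 8 in FR17 was −0.43 with TMM, −0.19 with library size and −0.33 with neutrophil scaling. Jak1, which serves both receptors, had 503 CPM in control, 473 with TP5, 609 with sFD17 and 366 with FR17, and its ratio to Jak2 per kilobase was 1.77, 1.47, 1.73 and 1.82. Jak3, the kinase of the common gamma chain, had a log2 fold change of 0.76 in sFD17 (0.64 to 0.89). Stat3, the STAT of interleukin 6 and G-CSF signalling, had 10433 counts in control, 9668 with TP5, 12503 with sFD17 and 8883 with FR17, and in FR17 its log2 fold change was −0.67 (−0.72 to −0.63).

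Of 17 other SOCS family members and negative regulators, 2 were at least 2-fold higher in sFD17 and 0 lower, where 5.32% and 6.47% of the genes tested were, and 0 passed 2-fold in TP5 (3.19% and 4.99%) or FR17 (3.91% and 3.57%). Usp18, which detaches the ubiquitin-like protein ISG15 and blocks signalling at IFNAR2, had 169 counts in control, 227 with TP5, 841 with sFD17 and 181 with FR17, with a log2 fold change of 2.66 in sFD17 (2.43 to 2.92). Cish, a SOCS family member induced through STAT5, had 444, 614, 770 and 696 counts and a value of 1.15 (0.98 to 1.32) in sFD17, which was below 2-fold with library size (0.93) and with neutrophil scaling (0.70). Socs2 had 92 counts in control and 43 in sFD17, a log2 fold change of −0.72 (−1.30 to −0.20) that passed 2-fold with neutrophil scaling (−1.16). The list median was 0.12 with TP5, 0.18 with sFD17 and −0.19 with FR17, and the signs for sFD17 and FR17 depended on the scaling. The sFD17 median turned to −0.03 with library size and −0.26 with neutrophil scaling, and the FR17 median to 0.06 with library size.

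Of 20 tested genes of other receptors that use Jak2 or Tyk2, 0 were at least 2-fold higher and 3 lower with TP5, where 3.19% of the genes tested were higher and 4.99% lower. With sFD17 it was 0 higher and 2 lower, beside 5.32% and 6.47%, and with FR17 1 higher and 1 lower, beside 3.91% and 3.57%. The lower genes were Epor, Ghr and Osmr in TP5, Lepr and Epor in sFD17, and Csf3r, the receptor of G-CSF, in FR17 (−1.04), and the higher gene was Il23r in FR17, from 5 counts to 26. Csf3r was short of 2-fold with library size (−0.79) and with neutrophil scaling (−0.94), and Il23r was not tested when at least 10 counts were required in every library. Lepr, the leptin receptor gene, had 185 counts in control, 104 with TP5, 36 with sFD17 and 316 with FR17. Epor, the erythropoietin receptor gene, had 74, 19, 14 and 119 counts, and Ghr, the growth hormone receptor gene, 55, 16, 26 and 63. These were low in both TP5 and sFD17 and near or above control in FR17. The log2 fold change was −1.96 for Lepr and −1.94 for Epor in sFD17 and −1.72 for Ghr in TP5. The list median was −0.13 with TP5, 0.07 with sFD17 and −0.09 with FR17. The last 2 signs turned with both other scalings, to −0.14 and 0.15 with library size and to −0.38 and 0.0070 with neutrophil scaling.

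In sFD17 more target genes than components of the pathway passed 2-fold. Of 24 type I interferon targets, 22 were at least 2-fold higher in sFD17 and 0 lower, beside 5.32% and 6.47% of the genes tested, with a median log2 fold change of 2.00 against −0.03 for all genes tested. With neutrophil scaling 19 were, beside 2.46% of the genes tested, with a median of 1.55 against −0.46 for all of them. Ifit2 had 260 counts in control, 259 with TP5, 3217 with sFD17 and 266 with FR17, and its relatives Ifit3 and Ifit3b, also antiviral genes, stood at log2 fold changes of 3.47 and 3.28 with sFD17. Ifit3 and Ifit3b are near-identical copies, so reads could have been divided between them differently. In TP5 0 of the 24 were higher and 1, Ifi44, lower, from 15 counts to 5, beside 3.19% and 4.99% of the genes tested, with a median of −0.19. In FR17 it was also 0 higher and 1 lower, Oasl2 (−1.08, and −0.83 with library size), beside 3.91% and 3.57%, with a median of −0.49 that was −0.24 with library size. Both pairs of counts were near those shares. Stat2 in sFD17, at 2.03, was close to the median of these targets.

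Of 24 interferon gamma targets, 13 were at least 2-fold higher and 0 lower in sFD17, where 5.32% and 6.47% of the genes tested were. In TP5 it was 0 higher and 2 lower, beside 3.19% and 4.99%, and in FR17 0 in either direction, beside 3.91% and 3.57%. The lower genes in TP5 were Iigp1, an immunity-related GTPase gene (−2.29), and Cxcl9, a chemokine gene (−1.20). The list medians in sFD17, TP5 and FR17 were 1.26, −0.33 and −0.12, and the FR17 median turned to 0.12 with library size. Neutrophil scaling left 9 of them higher in sFD17 and 1, Iigp1, lower, beside 2.46% and 15.5% of the genes tested under that scaling. With TMM, Gbp2 and Gbp5, guanylate-binding protein genes, stood at log2 fold changes of 3.59 and 3.54 in sFD17. Nos2, the inducible nitric oxide synthase gene, stood at 3.54, from 13 counts in control to 134. Ciita (−0.03), Irf8 (−0.06), Fcgr1 (−0.23) and Iigp1 (−0.82) lay below control in sFD17, and the other 20 of the 24 lay above it. Which interferon these changes reflect was not tested. Members of the guanylate-binding protein family resemble one another, and their reads may be divided between them.

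**Figure D5:**
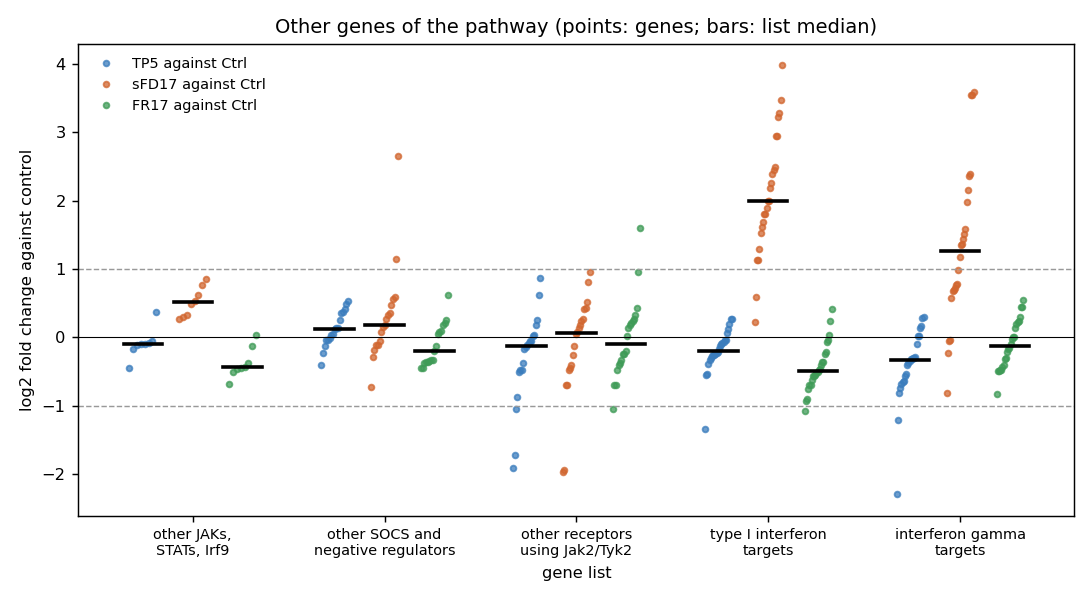
Log2 fold change against the control library of the tested genes of 5 pathway lists in the TP5, sFD17 and FR17 libraries; each point is a gene, black bars are list medians and dashed lines mark 2-fold. The target lists reach medians of 2.00 and 1.26 in sFD17, while the kinase and STAT list stays under 2-fold in all 3.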

How the data were processed

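The table deposited by the authors holds whole-number read counts, not normalized, beside the coordinates of each gene and its deposited length in bases, from which values per kilobase were made. RNA of CD11b+Ly6g+ cells pooled from 10 to 12 mice was made into 1 library per group with a directional NEBNext Ultra kit. The submitters' processing notes name HISAT2 2.0.5, StringTie 1.3.3b, featureCounts 1.5.0-p3 and edgeR 3.18.1 without their roles, and the build GRCm38.p6. Whether counting used the strand, and how reads of similar genes were treated, is not given in the sources used here. If strand was not used, reads of an antisense gene would count for its partner. The 4 columns were matched to the groups by name, and 0 sample columns stayed unmapped. Where a symbol had more than 1 row (100 symbols), its most abundant row was kept.

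Counts were analysed in R 4.3.3 with matrixStats 1.5.0, DESeq2 1.42.0 and edgeR 4.0.16, and Python 3.11.15 with matplotlib 3.10.9, numpy 2.4.6 and pandas 2.3.3 served for sequences and plots. Genes below 10 counts in all libraries were left out, and 16367 stayed. Fold changes are differences of log2 CPM from edgeR, TMM-scaled, with 2 as the prior count. A difference of at least 2-fold was counted, and no significance test was run, because each group had 1 library. All 6 pairs of libraries were compared. The calculation was tested on simulated data. The 9 genes, the 6 pathway lists and the 13 marker lists were chosen with earlier results of these data known. A gene of the pathway lists is not reported here and was left out of their counts. The genes named were the members and, in each pathway list, up to 3 with the largest change against control, provided that either library of the pair had 50 counts or more. Markers that moved with a member were named too, and for each member ranging at least 2-fold the 3 genes of closest pattern. Jak1, Socs3, the partner genes in ratios and the genes behind counts of 3 or fewer were named after their values were seen. So were Nr4a1 and the interferon gamma targets below control in sFD17. Promoters and their starts came from RefSeq on GRCm38.p6, and all 9 members matched. GENCODE M21 gave exon overlaps, and the 9 members had the same coordinates there. Alternatives were the size factors of DESeq2, library size alone, scaling on neutrophil markers, a prior count of 0.5, a 1.5-fold threshold, no filter and at least 10 counts in every library.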

Additional observations from a re-analysis of the deposited data

How the results depend on the processing

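Of 216 log2 fold changes of the 9 genes recomputed with another scaling or prior count, 139 stayed within the counting interval of the reported value, 77 moved outside it and 40 changed sign. Of the 24 for called folds, 8 moved and 0 changed sign. The filters on low counts leave these values as they are. With library size alone and with neutrophil scaling, 1 of the 9 genes, Stat2, was at least 2-fold lower in FR17 than in sFD17, beside 4.78% and 4.08% of all genes tested, against 2 and 10.8% with TMM. With a 1.5-fold threshold, 3 of the 9 were higher in sFD17 than in control (13.4% of all genes tested) and 3 higher than in TP5 (15.4%), 4 were lower in FR17 than in sFD17 (21.3%) and 2 lower in FR17 than in TP5 (10.1%).

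Of the pathway list genes, 37 were at least 2-fold higher in sFD17 than in control, and 33 with library size, 29 with neutrophil scaling and 51 at 1.5-fold, beside 5.32%, 3.54%, 2.46% and 13.4% of all genes tested. Lower in sFD17 were 2, which became 4 with library size, 7 with neutrophil scaling and 7 at 1.5-fold, beside 6.47%, 9.37%, 15.5% and 15.6%. In FR17 1 was higher (3.91% of all genes), which became 2 with library size (6.66%), neutrophil scaling (4.97%), a prior count of 0.5 (4.78%) or no filter (4.96%), 3 at 1.5-fold (11.0%) and 0 with at least 10 counts in every library (1.23%). In FR17 2 were lower (3.57%), which became 0 with library size (1.93%) or neutrophil scaling (2.77%) and 12 at 1.5-fold (11.7%). In TP5 0 were higher (3.19%), which became 2 at 1.5-fold (8.98%) and 1 with no filter (5.84%), and 7 were lower (4.99%), which became 13 at 1.5-fold (11.8%).

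Among all genes tested, library size moved those at least 2-fold higher in FR17 than in control from 640 to 1090 and those lower from 585 to 316. Neutrophil scaling moved those higher in sFD17 than in control from 871 to 402 and those lower from 1059 to 2535. Requiring at least 10 counts in every library, which tests 13465 genes, left 419 and 497 in sFD17 and 165 and 288 in FR17. The 1.5-fold threshold gave 2191 and 2559 in sFD17 and 1802 and 1910 in FR17. No paired analysis was possible because each group had 1 library, and for the same reason no replicate could be left out. At 15 to 56 counts the depth limited Ifng most.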
